A study of Homo sapiens with 6 samples.

Results

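The genes described here are 10 members of the microRNA processing and silencing machinery: DROSHA, DGCR8, XPO5, DICER1, TARBP2, AGO1, AGO2, AGO3, TNRC6A and TNRC6B. They were chosen by name, with earlier results of these data known, and every array probe that carried 1 of these names was taken. This gave 10 of the 41810 gene names on the array and 14 of its 58201 probes. AGO1 and AGO3 had 2 probes each, XPO5 had 3, and the other genes had 1. No probe carried the older names RNASEN, EIF2C1, EIF2C2 or EIF2C3. The measurements came from 22RV1, an established human prostate carcinoma line that the labels call SPINK1 positive, and asked how its transcripts differ when a microRNA is made from a lentiviral vector. The groups were cells carrying pLemiR-338-5p (replicates 1, 2 and 3) and cells carrying pLemiR-421 (a pool and replicates 1 and 2), each set on its array against cells carrying the control vector pLemiR-RFP. All 3 kinds of cell were stable lines kept in medium with puromycin. Control RNA was labelled with Cy3 and RNA of the microRNA line with Cy5 on all 6 arrays, with no dye swap, after poly(A) tailing of total RNA. The labels do not say what the pool holds, what the letter C in the other 5 titles stands for, whether the numbered samples are separate cultures or clones, or whether 1 control culture supplied every array. The p-values below therefore measure only the spread between these samples, which may be technical, and a probe's dye bias would enter either comparison with control.

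A microRNA is cut from its primary transcript in the nucleus by the Microprocessor, in which DROSHA is the RNase III enzyme and DGCR8 its RNA-binding partner. Exportin-5, the product of XPO5, carries the hairpin to the cytoplasm, where the RNase III enzyme DICER1, with its partner TARBP2, trims it to a duplex. An Argonaute protein (AGO1, AGO2 or AGO3 among the members) keeps the guide strand of the duplex, and TNRC6A and TNRC6B, scaffold proteins of the GW182 family, link Argonaute to the enzymes that shorten and decay the target mRNA. The same proteins handle a vector-derived hairpin, and a microRNA recognises targets mainly through its seed, the bases near its 5′ end.

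The overexpressed microRNAs enter this pathway as hairpins, so their RefSeq sequences (GRCh38.p14) are shown first; the labels do not state the exact insert of either vector. In the mature sequences the capitals mark the seed (bases 2 to 8), and in the hairpins they mark the arm that gives the named microRNA.
hsa-miR-338-5p: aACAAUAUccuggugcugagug
hsa-miR-421: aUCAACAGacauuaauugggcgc
MIR338 hairpin, chr17:81125883-81125949, minus strand: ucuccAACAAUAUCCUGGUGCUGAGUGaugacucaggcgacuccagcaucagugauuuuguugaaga
MIR421 hairpin, chrX:74218377-74218461, minus strand: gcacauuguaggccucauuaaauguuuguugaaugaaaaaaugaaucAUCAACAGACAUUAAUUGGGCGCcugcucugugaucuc
The seeds of miR-338-5p and miR-421 differ, and the hairpins differ in length (67 and 85 bases). The MIR338 hairpin also holds the other arm, whose seed is a further one.
hsa-miR-338-3p: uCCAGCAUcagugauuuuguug
The array had no probe named MIR338 or MIR421, so the level of either hairpin was not read from it here.

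Each of the 14 probes is 60 bases long, and these were searched for the complements of the seeds. The complement of bases 2 to 8 of miR-338-5p, ATATTGT, was in 0 of the 14 probes and in 0.4777% of all 58201 probes. The complement of bases 2 to 8 of miR-421, CTGTTGA, was in 0 of the 14 and in 0.5584% of all. For the shorter complement of bases 2 to 7, TATTGT of miR-338-5p was in 1 of the 14 (TNRC6A) and in 1.7182% of all probes, and TGTTGA of miR-421 was in 0 of the 14 and in 2.0824% of all. The single match is shown with its surroundings, the matched letters in capitals; it starts at base 37 of the TNRC6A probe.
TNRC6A probe, bases around the match: gttgcctacctTATTGTggtatcgtggagt
On the other strand, 0 of the 14 probes held any of the 4 motifs: ACAATAT was in 0.3849% of all probes, ACAATA in 1.5962%, TCAACAG in 0.5034% and TCAACA in 2.1323%. A match describes letters within a probe, and these probes cover only a small stretch of each transcript.

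On each array between 41.9% and 48.3% of the 60901 gene spots were well above background in either dye, with 0 saturated, and the lowest share was that of Cy5 on the array of miR-421 replicate 1. That array also had the widest spread of log2 ratios (SD 0.53, against 0.33 to 0.43 on the others). In Cy3, the control channel, the share above background was 47.3% to 47.9% on the miR-338-5p arrays and 44.3% to 44.4% on the miR-421 arrays. Of the 9 listed markers of prostate epithelium, 9 were well above background on all 6 arrays in both dyes. Among markers of other cell types, COL1A2 and PECAM1 were above background on 0 arrays, CD68 had no probe, COL1A1, VIM, PTPRC, CD3E and VWF were above it on all 6 arrays in both dyes, and DCN was on 6 arrays in Cy3 and 5 in Cy5. Their part in the results was not tested. In bulk RNA, fewer cells with a transcript and less of it per cell cannot be told apart.

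DICER1 and 1 of the 2 AGO3 probes had lower signal in both microRNA lines than in control cells, and no other machinery probe passed the test. DICER1 signal was 51.9% of control in the miR-338-5p line and 41.6% in the miR-421 line, and that of the AGO3 probe was 75.2% and 67.0%. All 14 probes were bright enough to be tested, and 2 of 14 passed in each comparison with control, both of them lower (limma, Benjamini-Hochberg adjusted p below 0.05). For miR-338-5p, 9.00% of all 27501 probes tested passed in either direction and 5.22% passed as lower. For miR-421, 21.6% of 27491 passed and 12.5% passed as lower, and read against these shares 2 of 14 is no result about the machinery as a set. Of all calls under miR-338-5p, 58.0% were lower; this share was 82.0% with median centring in place of loess, 45.5% with the local background subtracted, 45.8% in the image software's own ratios and 44.2% in the authors' deposited table. At an unadjusted p below 0.05, 6 of the 14 probes passed under miR-338-5p, beside 27.2% of all probes, and 6 of the 14 under miR-421, beside 37.5%.

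The values on single arrays are given below as the log2 ratio of Cy5 (microRNA line) over Cy3 (control) after normalization, so that -1 is a signal at 50% of control. Over the 6 arrays, 5 probes read below 0 on every one (DROSHA, DICER1, the first AGO3 probe, TNRC6A and TNRC6B) and 2 read above 0 on every one (TARBP2 and the first AGO1 probe). The other 7 probes changed sign between arrays. The share of all probes with the same sign on all 6 arrays was not counted, so these counts are no result about the machinery. With 1 probe a gene, the median of the 10 members was -0.20 under each microRNA, while the median over all gene names was -0.0015 in the miR-338-5p line and 0.0052 in the miR-421 line. Over all 14 probes the medians were -0.10 and -0.04.

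**Figure D1:**
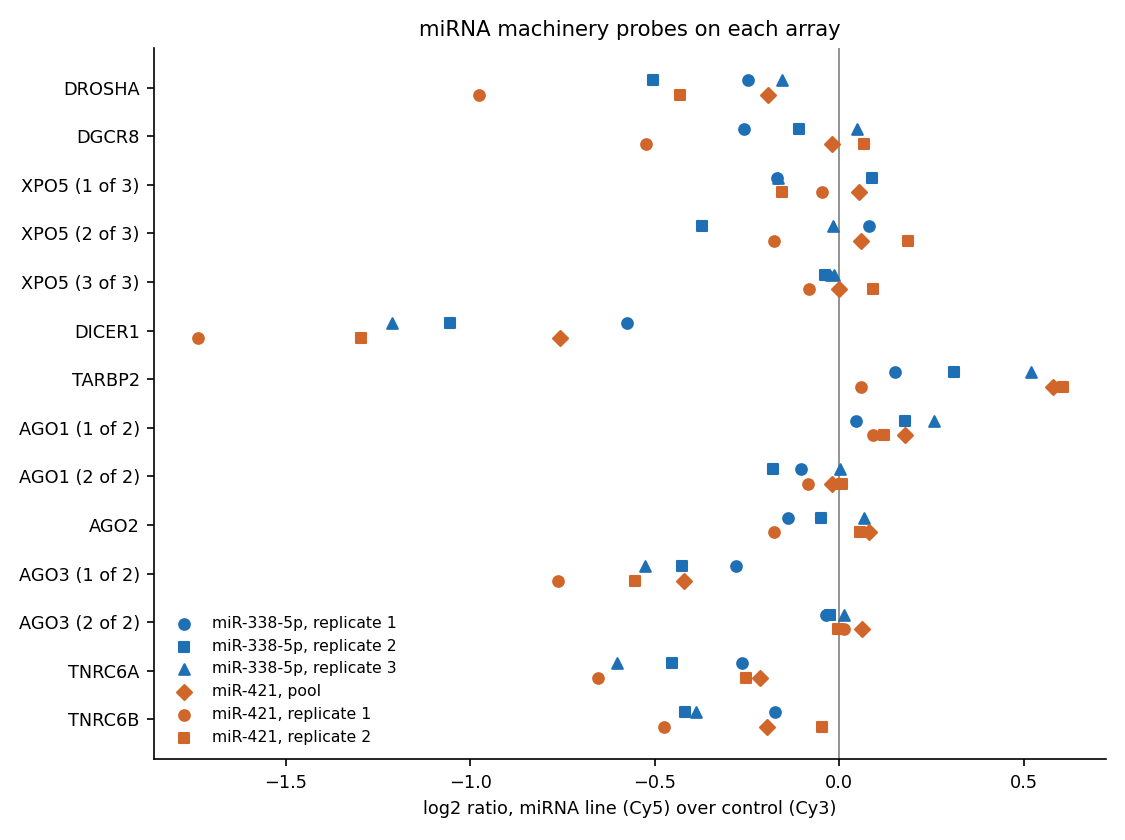
Log2 ratio of the microRNA line (Cy5) over control (Cy3) for each of the 14 machinery probes (rows) on each of the 6 arrays (symbols; blue for miR-338-5p, orange for miR-421). DICER1 lies farthest to the left, from -0.58 to -1.74, the first AGO3 probe lies from -0.28 to -0.76, and the second AGO3 probe lies between -0.03 and 0.06.

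Transcripts of the Microprocessor, which acts first in the pathway, did not pass the test. DROSHA, the nuclear RNase III enzyme, was read by probe A_23_P133596 (hg19 chr5:31401473-31401532, minus strand). Its log2 ratio was -0.25, -0.50 and -0.16 in the miR-338-5p replicates 1, 2 and 3, and -0.19, -0.98 and -0.43 in the miR-421 pool and replicates 1 and 2. The 6 values were all below 0, the lines overlapped, and miR-421 replicate 1 lay lowest, at 50.8% of control. The means were -0.30 ± 0.18 (SD, n = 3; limma adjusted p = 0.27) and -0.53 ± 0.40 (SD, n = 3; limma adjusted p = 0.055). The 95% interval of the miR-421 mean, -0.91 to -0.16, lay below 0 before adjustment over all probes, and that of miR-338-5p, -0.68 to 0.07, spanned it. DGCR8, which clamps the primary transcript for DROSHA, was read by A_23_P211355 (hg19 chr22:20098916-20098975, plus strand) at -0.26, -0.11 and 0.05, and at -0.02, -0.52 and 0.07 in the same order. Both lines held values on either side of 0, and the lowest was again miR-421 replicate 1. The means were -0.11 ± 0.15 (SD, n = 3; limma adjusted p = 0.65) and -0.16 ± 0.32 (SD, n = 3; limma adjusted p = 0.41).

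For XPO5, which exports the precursor hairpin, no probe passed and the mean of each of the 3 lay near control. Probe A_33_P3228366 (hg19 chr6:43494424-43494483, minus strand) read -0.17, 0.09 and -0.17 in the miR-338-5p replicates and 0.05, -0.05 and -0.16 in the miR-421 pool and replicates 1 and 2. A_23_P256855 (chr6:43490583-43490642) read 0.08, -0.37 and -0.02, then 0.06, -0.18 and 0.19. Its 95% intervals were wider, 77.4% to 112% of control with miR-338-5p and 84.4% to 122% with miR-421. The 95% intervals of the first probe, -0.26 to 0.10 and -0.23 to 0.13, bound its mean to within 83.2% to 107% of control with miR-338-5p and 85.1% to 110% with miR-421. The third probe, A_33_P3228375 (chr6:43491398-43491457), was well above background on only 2 arrays in each dye, so its ratios of -0.08 to 0.09 carry little information. The probe starts lie 815 and 3026 bases apart along the gene, and the 3 probes gave no call in either direction.

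DICER1 was lower than control on all 6 arrays and had the largest mean of the members in both lines. Its probe A_33_P3212490 (hg19 chr14:95552615-95552674, minus strand) read -0.58, -1.05 and -1.21 in the miR-338-5p replicates and -0.76, -1.74 and -1.30 in the miR-421 pool and replicates 1 and 2. As a share of control these were 67.1%, 48.1% and 43.2%, then 59.2%, 29.97% and 40.7%. The value nearest to control in each line was miR-338-5p replicate 1 and the miR-421 pool, and the lines overlapped. The mean fell by 0.95 on the log2 scale under miR-338-5p (SD 0.33, n = 3; 95% interval -1.44 to -0.45; limma adjusted p = 0.043). Under miR-421 it fell by 1.26 (SD 0.49, n = 3; 95% interval -1.76 to -0.77; limma adjusted p = 0.013). The control channel of this probe stayed within 0.27 over the 6 arrays on the log2 scale (8.74 to 9.01), while the Cy5 channel spanned 0.89 (7.27 to 8.16). The range over arrays was wider in Cy5 than in Cy3 at 12 of the 14 probes, and the share over all probes was not counted. With no dye swap the dye and the microRNA line cannot be told apart here.

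The direction held in all 17 alternatives of each DICER1 comparison, but the call under miR-338-5p passed in only 7 of 17. It was lost when any miR-338-5p array was left out: the mean was -1.13 without replicate 1 (limma adjusted p = 0.076), -0.89 without replicate 2 (0.15) and -0.81 without replicate 3 (0.16). It was also lost without miR-421 replicate 2, which enters only the pooled spread (-0.95, limma adjusted p = 0.088). Under miR-421 the call passed in 16 of 17 and was lost without miR-421 replicate 2 alone (-1.25, limma adjusted p = 0.076).

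TARBP2, the double-stranded RNA-binding partner of DICER1, read above control on all 6 arrays without passing the test. Its probe A_23_P87603 (hg19 chr12:53899897-53899956, plus strand) gave 0.15, 0.31 and 0.52 in the miR-338-5p replicates and 0.58, 0.06 and 0.61 in the miR-421 pool and replicates 1 and 2. The means were 0.33 ± 0.19 (SD, n = 3; limma adjusted p = 0.17) and 0.42 ± 0.31 (SD, n = 3; limma adjusted p = 0.066). In the miR-421 line the pool and replicate 2 lay at 149% and 152% of control and replicate 1 at 104%. Without replicate 1 the miR-421 mean was 0.59 (limma adjusted p = 0.030), a call in the direction opposite to that of DICER1. TARBP2 passed in only 1 of 17 alternatives under miR-421 and in 0 of 17 under miR-338-5p.

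**Figure D2:**
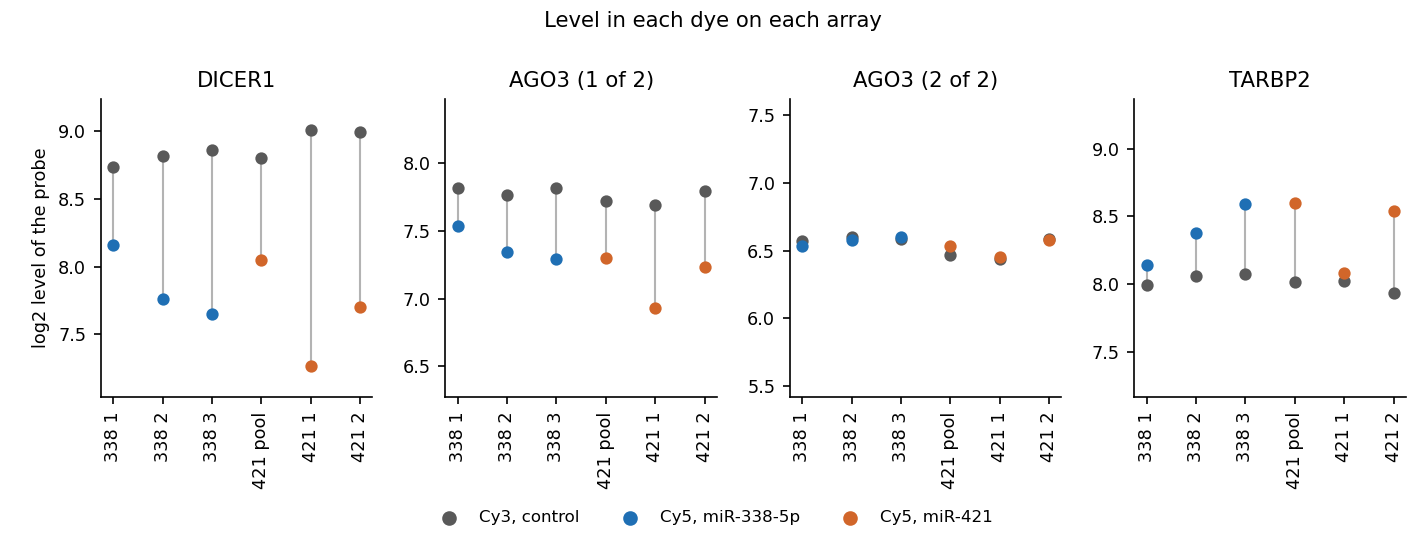
Normalized log2 level of 4 probes in the control channel (grey, Cy3) and the microRNA line (colour, Cy5) on each array, joined by a line whose length is the log2 ratio; the vertical axes start at different levels and span the same number of log2 units. For DICER1 the grey points stay between 8.74 and 9.01 while the coloured points spread from 7.27 to 8.16, and for TARBP2 the coloured point lies above the grey one on every array.

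Among the Argonautes, AGO1 and AGO2 gave no call, and AGO3 gave different answers at its 2 probes. AGO2, the Argonaute with slicer activity, was read by A_23_P112159 on the minus strand of chromosome 8, which is printed 10 times on the array. After outlier spots were left out, 7 to 10 spots were averaged on each array, and the SD between spots of 1 array was 0.057 to 0.088. The log2 ratio was -0.14, -0.05 and 0.07 in the miR-338-5p replicates and 0.08, -0.18 and 0.06 in the miR-421 pool and replicates 1 and 2. The values lay on both sides of 0 in each line. The 95% intervals of the means placed AGO2 between 85.9% and 110% of control under miR-338-5p and between 87.5% and 112% under miR-421.

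AGO1, an Argonaute that silences without slicing, was read by A_33_P3402116 (hg19 chr1:36389840-36389899, plus strand) at 0.05, 0.18 and 0.26 in the miR-338-5p replicates and at 0.18, 0.09 and 0.12 in the miR-421 pool and replicates 1 and 2. All 6 values were above 0 and small, with means of 0.16 ± 0.11 (SD, n = 3; limma adjusted p = 0.15) and 0.13 ± 0.04 (SD, n = 3; limma adjusted p = 0.17). The positive sign under miR-338-5p did not hold with median centring (-0.04) or in the authors' deposited table (-0.03). Its other probe, A_33_P3380587 (chr1:36386500-36386559), which starts 3340 bases away, read -0.10, -0.18 and 0.00, then -0.02, -0.08 and 0.01. Neither probe passed the test, and they lay on different sides of 0 on 4 of the 6 arrays.

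AGO3, a further Argonaute, was lower than control at A_23_P97021 (hg19 chr1:36521552-36521611, plus strand), the probe that represents the gene here. The log2 ratio was -0.28, -0.43 and -0.52 in the miR-338-5p replicates and -0.42, -0.76 and -0.55 in the miR-421 pool and replicates 1 and 2. All 6 values were below 0, from 82.3% to 59.0% of control, and the lines overlapped. The mean fell by 0.41 under miR-338-5p (SD 0.12, n = 3; 95% interval -0.62 to -0.21; limma adjusted p = 0.039) and fell by 0.58 under miR-421 (SD 0.17, n = 3; 95% interval -0.78 to -0.37; limma adjusted p = 0.010). At the other AGO3 probe, A_33_P3244882 (chr1:36439052-36439111), which starts 82500 bases away, the ratio was -0.03, -0.02 and 0.01, then 0.06, 0.01 and 0.00. These values lay at control in both lines, with 95% intervals of -0.13 to 0.10 and -0.09 to 0.14 that exclude the mean of the first probe. The second probe was well above background on all 6 arrays in both dyes, with Cy3 intensities of 51.2 to 74.6 over a local background of 21.5. The offset of 50 used in background correction draws ratios of dim spots towards 0. With the background subtracted and no offset its means were -0.01 and 0.14, with the image software's ratio -0.07 and 0.11, and with median centring -0.12 and 0.00. The part of the offset in the difference between the probes was not tested. Exon, intron and UTR positions of the probes were not used here, and whether the probes read different AGO3 transcripts was not tested.

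The AGO3 call under miR-338-5p passed in 3 of 17 alternatives. It was lost without miR-338-5p replicate 1 (-0.48, limma adjusted p = 0.079), replicate 2 (-0.40, 0.13) or replicate 3 (-0.35, 0.15), and, at -0.41, without the miR-421 pool (limma adjusted p = 0.057) or miR-421 replicate 2 (0.083). Under miR-421 it passed in 15 of 17; it was lost without miR-421 replicate 2 (-0.59, limma adjusted p = 0.065) and in the authors' deposited table (-0.37, 0.11), which holds 1 value a gene name.

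TNRC6A and TNRC6B, the GW182 scaffolds that recruit deadenylases to Argonaute, read below control on all 6 arrays without passing the test in either comparison. TNRC6A (A_23_P349310, hg19 chr16:24835610-24835669, plus strand) gave -0.26, -0.45 and -0.60 in the miR-338-5p replicates and -0.21, -0.65 and -0.25 in the miR-421 pool and replicates 1 and 2. Its means were -0.44 ± 0.17 (SD, n = 3; limma adjusted p = 0.061) and -0.37 ± 0.24 (SD, n = 3; limma adjusted p = 0.057). TNRC6B (A_23_P6490, hg19 chr22:40719222-40719281, plus strand) gave -0.17, -0.42 and -0.39, then -0.19, -0.48 and -0.05. Its means were -0.33 ± 0.13 (SD, n = 3; limma adjusted p = 0.092) and -0.24 ± 0.22 (SD, n = 3; limma adjusted p = 0.13). The lines overlapped at both genes, and miR-421 replicate 1 lay lowest at both. Both passed as lower under miR-338-5p when miR-421 replicate 1 was left out, which narrows the pooled spread but leaves the means as they are (limma adjusted p = 0.028 for TNRC6A and 0.046 for TNRC6B).

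The array of miR-421 replicate 1 recurs in these values: it was the lowest of its line at 12 of the 14 machinery probes, and its median over them was -0.18, against -0.01 for the pool and 0.00 for replicate 2. How often it was lowest over all probes was not counted, so this count is no result about the machinery. It was also the array with the widest spread of log2 ratios and the lowest share of Cy5 spots above background, as given above. The part of these in the values was not tested. Without this array, DICER1 fell by 1.03 and the first AGO3 probe fell by 0.49 under miR-421 (limma adjusted p = 0.039 and 0.032). The miR-421 mean of DROSHA was then -0.31 in place of -0.53, that of TNRC6A -0.23 in place of -0.37 and that of TNRC6B -0.12 in place of -0.24, with no call (limma adjusted p = 0.14, 0.17 and 0.43). That of DGCR8, which had no call either, was 0.02 in place of -0.16.

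The microRNA lines were then set against each other, where a control level or dye bias common to all arrays cancels. The Cy3 share of spots above background differed between the arrays of the lines, as given above, and its part here was not tested. Of the 14 probes, 0 passed (limma, adjusted over all probes), beside 0.0473% of all 27489 probes, 0 reached an unadjusted p below 0.05, beside 13.7% of all, and at 0 probes did the 3 values of each line separate, beside 19.8% of the probes measured on every array. The lines lay wholly on opposite sides of control at 0 of the 14, beside 3.53% of those probes. DICER1 differed by 0.32 (miR-338-5p minus miR-421) with a 95% interval of -0.38 to 1.01 (limma adjusted p = 0.68). For the first AGO3 probe the difference was 0.17, with an interval of -0.12 to 0.46 (limma adjusted p = 0.59). DROSHA differed by 0.23, with an interval of -0.30 to 0.76. For AGO2 the interval was narrower, from -0.28 to 0.23, and the narrowest of the representing probes was that of AGO1, from -0.18 to 0.24. These intervals leave room for differences in DICER1 between 76.8% and 202%, so the lines are not shown to act alike.

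**Figure D3:**
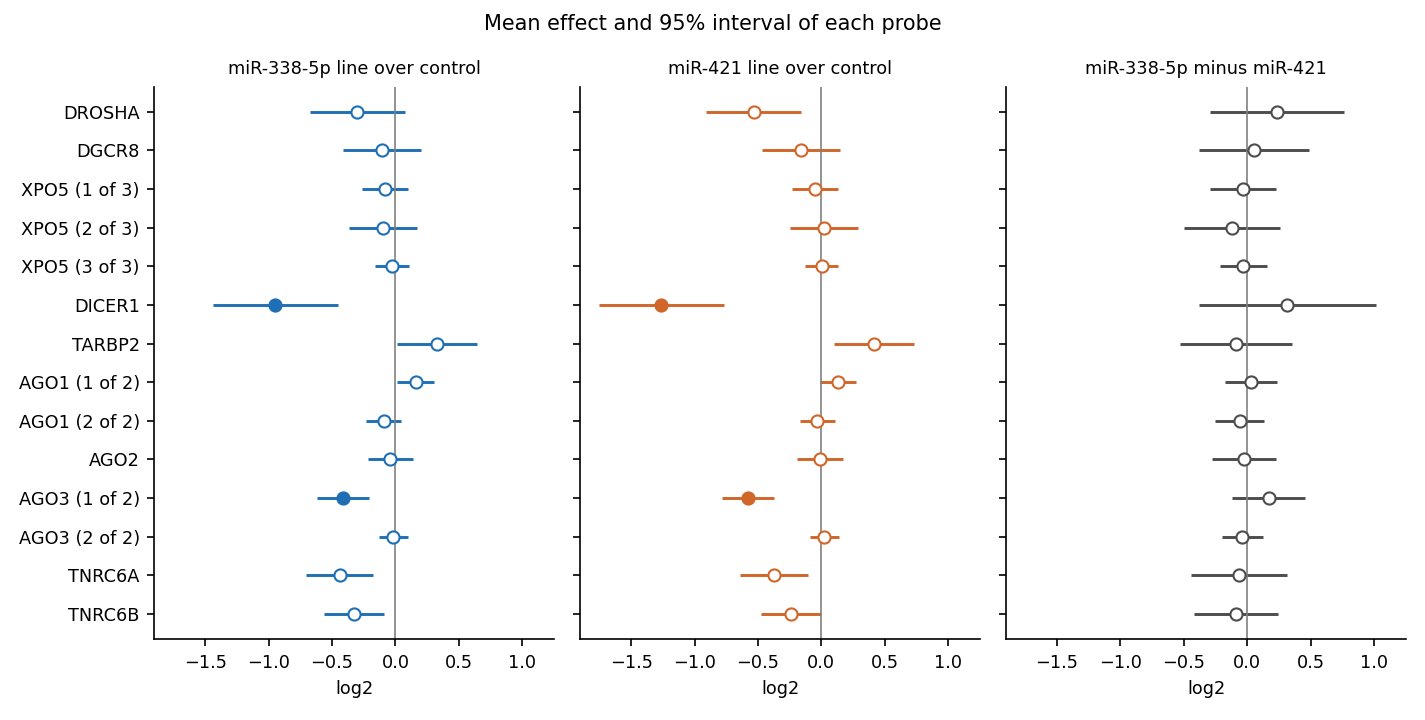
Mean log2 effect (points) and 95% interval (bars) of each machinery probe in the 3 comparisons, from 1 limma fit over the 6 arrays; filled points passed an adjusted p of 0.05. DICER1 and the first AGO3 probe are filled and below 0 in both comparisons with control, and in the comparison of the lines every interval spans 0.

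DICER1 had the largest absolute mean of the 10 members in both lines, and the genes whose 6 log2 ratios lay nearest to its own were GMNN, SBNO1 and KIAA1033. Their Euclidean distances to DICER1 over the 6 arrays were 0.368, 0.368 and 0.369. GMNN, which encodes the replication licensing inhibitor geminin, read -0.85, -1.13 and -1.19 in the miR-338-5p replicates and -0.92, -1.89 and -1.22 in the miR-421 pool and replicates 1 and 2. SBNO1 read -0.71, -1.16 and -1.30, then -0.68, -1.83 and -1.01. KIAA1033, an older name of a WASH complex subunit, read -0.38, -0.85 and -1.08, then -0.89, -1.61 and -1.24. Each was lowest in miR-421 replicate 1, as DICER1 was. The genes were picked for their nearness to DICER1 on these same arrays, so a shared lowest array follows largely from that choice. This is a description of 6 arrays only.

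The wider pathway was described with 78 further genes in 5 lists, 1 probe a gene, of which 75 could be tested (LIN28A, LIN28B and TRIM71 were too dim). Under miR-338-5p, 12 of 75 fell and 1 rose (limma adjusted p below 0.05), beside 5.32% of all gene names that fell and 4.06% that rose. Under miR-421, 24 of 75 fell and 3 rose, beside 12.9% and 10.1% of all gene names. The median over the 75 was -0.30 under miR-338-5p, with 57 genes below 0, and -0.37 under miR-421, with 64 below 0. Of all gene names, 10643 of 21123 lay below 0 under miR-338-5p and 10327 of 21116 under miR-421. The lists were chosen with earlier results of these data known, and no set test was run. The counts are therefore no result about the pathway as a set, and they also depended on single arrays. The 13 calls under miR-338-5p became 3, 1 and 2 without miR-338-5p replicates 1, 2 and 3, 3 without the miR-421 pool, 1 without miR-421 replicate 2, and 27 without miR-421 replicate 1. The 27 calls under miR-421 became 2 without miR-421 replicate 2, 15 without the pool, 18 without replicate 1, and 20, 28 and 17 without miR-338-5p replicates 1, 2 and 3.

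Among the 15 other processing factors, 2 fell and 0 rose under miR-338-5p, and 6 fell and 0 rose under miR-421. Of all gene names, 5.32% fell and 4.06% rose under miR-338-5p, and 12.9% fell and 10.1% rose under miR-421. No set test was run on any list, so the counts are no result about a list. SRSF3, a splicing factor that helps the Microprocessor recognise hairpins, fell by 1.85 under miR-421 (-1.09, -3.20 and -1.26 in the pool and replicates 1 and 2; limma adjusted p = 0.031), and its other probe fell by 1.21. DDX5, the p68 helicase found with DROSHA, fell by 1.65 under miR-421 (-1.52, -1.98 and -1.46; limma adjusted p = 0.0025). The miR-421 call of DDX5 passed in 17 of 17 alternatives. DDX5 also fell by 0.69 under miR-338-5p (limma adjusted p = 0.025), a call in 7 of 17 alternatives. Under miR-338-5p SRSF3 read -1.01 (-1.51, -0.73 and -0.78) and its other probe -0.72, with no call (limma adjusted p = 0.19 and 0.15). The miR-421 call of SRSF3 passed in 12 of 17 and was lost, among others, without miR-338-5p replicate 3 or miR-421 replicate 2. The miR-421 mean of SRSF3 ranged from -2.23 to -1.17. Of the 4 tested genes of precursor uridylation, 0 passed under miR-338-5p and TUT1, a terminal uridylyltransferase, rose by 0.30 under miR-421 (0.15, 0.31 and 0.44; limma adjusted p = 0.047). The TUT1 call passed in 4 of 17 alternatives and was lost when any single array was left out, at means of 0.21 to 0.55 over its alternatives.

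Among the 17 tested loading factors, chaperones and other Argonaute partners, 4 fell under miR-338-5p, and 5 fell and 1 rose under miR-421. These counts stand beside 5.32% of all gene names that fell under miR-338-5p, and 12.9% that fell and 10.1% that rose under miR-421. They are no result about the list. HSPA8, the constitutive Hsc70 chaperone that helps load Argonaute, fell by 1.69 under miR-338-5p (-1.64, -1.77 and -1.65 in replicates 1, 2 and 3; limma adjusted p = 0.0063), the largest fall of the lists in that line, and fell by 1.05 under miR-421. The HSPA8 calls passed in 17 of 17 alternatives in both lines. HSP90AA1, an HSP90 chaperone of the same loading step, fell by 1.38 under miR-421 (-0.85, -2.50 and -0.81; limma adjusted p = 0.038), and its 2 other probes fell by 1.43 and fell by 1.18. Under miR-338-5p the representing probe of HSP90AA1 read -1.01 (-1.11, -1.29 and -0.64) with no call (limma adjusted p = 0.12). Of its other probes in that line, 1 read -1.08 with no call (limma adjusted p = 0.056). The other fell by 0.81, a call (limma adjusted p = 0.0498). The miR-421 call at the representing probe passed in 9 of 17 alternatives. That call was lost, among others, without any array but miR-421 replicate 1, with means of -1.67 to -0.83. TNRC6C, the third GW182 scaffold beside TNRC6A and TNRC6B, rose by 0.37 under miR-421 (0.42, 0.18 and 0.53; limma adjusted p = 0.025) and read 0.29 under miR-338-5p (0.34, 0.22 and 0.33; limma adjusted p = 0.070). Its values thus lay above control where those of TNRC6A and TNRC6B lay below it. The miR-421 call of TNRC6C passed in 8 of 17 alternatives (means of 0.26 to 0.51). It was lost, among others, without the pool or miR-421 replicate 2, with the background subtracted and with median centring. The other TNRC6C probe read 0.15 under miR-421 with no call.

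AGO4, the remaining Argonaute, and PRKRA, the other double-stranded RNA-binding partner of DICER1, are named because they are close relatives of members and after their values were seen. AGO4 read -0.14, 0.08 and -0.19 in the miR-338-5p replicates and 0.03, -0.26 and -0.03 in the miR-421 pool and replicates 1 and 2, with no call in either (limma adjusted p = 0.59 and 0.48). PRKRA read -0.15, -0.49 and -0.27, then -0.19, -0.59 and -0.40, and fell by 0.39 under miR-421 (limma adjusted p = 0.041) in 6 of 17 alternatives. It was not a call without miR-338-5p replicate 1 or 3 or miR-421 replicate 1 or 2, with means from -0.52 to -0.29. TARBP2 and PRKRA, which bind the same part of DICER1, thus read on opposite sides of control on all 6 arrays.

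Among the 19 genes of deadenylation, 4 fell and 1 rose in each line. Of all gene names, 5.32% fell and 4.06% rose under miR-338-5p, and 12.9% fell and 10.1% rose under miR-421. CNOT6, a deadenylase of the CCR4-NOT complex, fell by 0.94 under miR-338-5p (-0.51, -1.30 and -1.0 in replicates 1, 2 and 3; limma adjusted p = 0.043), and CNOT3, a scaffold of that complex, rose by 0.34 under miR-421 (0.26, 0.45 and 0.30; limma adjusted p = 0.038), with its other probe at 0.12 and no call. BTG1, an antiproliferative protein that binds deadenylases, rose by 1.03 under miR-338-5p (0.78, 0.70 and 1.61; limma adjusted p = 0.026) and fell by 0.91 under miR-421. Among the 20 genes of decapping and decay, 2 fell with miR-338-5p and 9 fell with miR-421, while 0 rose. The shares over all gene names given above, 5.32% and 12.9% lower, apply here too. With no set test, the counts of deadenylation and of decapping and decay are no result about either list. DDX6, the helicase that joins deadenylation to decapping, fell by 0.93 under miR-338-5p (-0.68, -1.49 and -0.62; limma adjusted p = 0.036), and its other probe read -0.18 with no call. The miR-338-5p calls of CNOT6 and DDX6 passed in 6 and 7 of 17 alternatives. Both were lost, among others, without any array but miR-421 replicate 1 (means of -1.21 to -0.76 and -1.13 to -0.55). Under miR-421, CNOT6 fell by 0.88 (limma adjusted p = 0.031), a call in 10 of 17 alternatives. DDX6 fell by 0.90 under miR-421 (limma adjusted p = 0.023), a call in 14 of 17, and its other probe fell by 0.28 (limma adjusted p = 0.024). The miR-338-5p call of BTG1 passed in 9 of 17 alternatives (0.74 to 1.20). It was lost, among others, without miR-338-5p replicate 1 or 2, the pool or miR-421 replicate 2. The miR-421 call of BTG1 passed in 14 of 17 (-0.97 to -0.87) and was lost when any miR-421 array was left out. The other BTG1 probe read 0.79 in the miR-338-5p line with no call (limma adjusted p = 0.074) and fell by 0.89 with miR-421 (limma adjusted p = 0.035). The call of CNOT3 passed in 6 of 17 alternatives and was lost, among others, without miR-338-5p replicate 3 or any miR-421 array (0.23 to 0.41). In the comparison of the lines, 0 of the 75 genes passed (limma), beside 0.0426% of all gene names, and 10 of 75 reached an unadjusted p below 0.05, beside 14.5% of all gene names. The lines lay wholly on opposite sides of control at 3 of the 75 genes, beside 3.66% of all gene names.

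**Figure D4:**
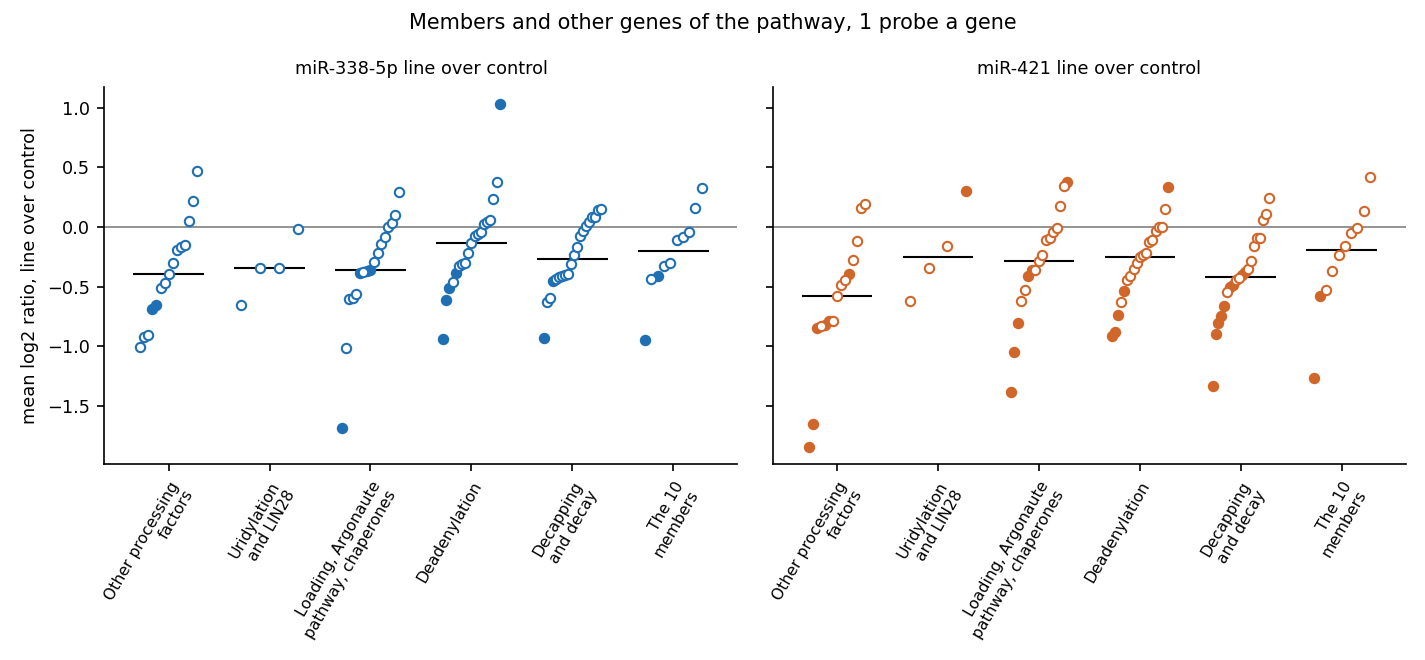
Mean log2 ratio of the line over control for each tested gene of 5 pathway lists and for the 10 members (1 point a gene, 1 probe a gene, ordered by value within a list; the bar is the median; filled points passed an adjusted p of 0.05 in limma). The median of every list lies below 0 in both lines, that of the 10 members at -0.20, and DICER1 is the lowest member in both panels.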

How the data were processed

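The members and the pathway lists were chosen with earlier results of these data known. Per the file headers, scans of 1 slide were quantified in Feature Extraction 11.5.1.1. The deposited intensity columns hold each spot's mean brightness and its local background, without normalization. In the same files, the deposited log10 ratios had been background-subtracted and dye-normalized by that software. The authors' deposited table gives log2 ratios by gene name, with a normalization not given in the sources used here. Both ratio sources served as alternatives only. Coordinates of probes are hg19 ones, as the file headers give the build.

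Intensities were background-corrected (normexp, offset 50) and normalized by loess within each array, with control spots at weight 0. Outlier spots were left out and spots of 1 probe averaged. Probes flagged well above background in Cy3 or Cy5 on 3 of 6 arrays or more were kept (27503). All 6 arrays entered 1 fit in limma 3.58.1 (R 4.3.3) with a mean per line and eBayes (prior degrees of freedom 2.05); tests were two-sided, with Benjamini-Hochberg adjustment over all probes at 0.05. Where a gene is given by 1 probe, it is the tested probe with the highest mean intensity. Beside the members, the named genes are the 3 largest rises and 3 largest falls of the 5 lists together in each comparison with control, past the threshold and of the same sign on all 3 arrays (1 gene rose under miR-338-5p), and the 3 genes nearest to the member with the largest mean. The fit was tested on simulated data. Alternatives changed the background correction, the normalization, the source of the ratio, the filter, outlier spots, the variance model, which arrays were fitted, how probes of a gene were combined, the replicate block and each array left out. Precision is limited by the number of arrays.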

Additional observations from a re-analysis of the deposited data

Results flagged for a closer look

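At 0 of the 14 machinery probes did all arrays of the lines read on opposite sides of control, beside 3.53% of all probes measured on every array. They did at 3 of the other 75 pathway genes, beside 3.66% of all gene names with 1 probe each, which is near that share. BTG1 read 0.78, 0.70 and 1.61 in the miR-338-5p replicates and -0.97, -0.90 and -0.88 in the miR-421 pool and replicates 1 and 2, a difference of 1.94 (95% interval 1.34 to 2.55; limma adjusted p = 0.074). This difference passed in 2 of 16 alternatives, without background correction and with trended and robust variance, and the other BTG1 probe differed by 1.67 (limma adjusted p = 0.12). TUT1 read -0.34, -0.48 and -0.21, then 0.15, 0.31 and 0.44, a difference of -0.65 (95% interval -0.92 to -0.37; limma adjusted p = 0.12). ILF2 read 0.12, 0.52 and 0.01, then -0.34, -0.33 and -0.17, a difference of 0.50 (95% interval 0.14 to 0.86; limma adjusted p = 0.25). The differences of TUT1 and ILF2 passed in 0 of 16 alternatives.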

How the results depend on the processing

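With 3 arrays a line, the calls on the machinery changed with the processing and with the arrays that were fitted. Under miR-338-5p the 2 probes past the threshold became 1 without background correction or with the mean of a gene's probes. They became 0 with the background subtracted, median centring, the image software's ratios, the authors' table, no filter or the line's own arrays alone, and 0 to 4 with each array left out. Under miR-421 the 2 became 1 in the authors' table, 4 with trended and robust variance (DROSHA and TNRC6A added), and 0 to 3 with each array left out. In the comparison of the lines 0 machinery probes passed in each of the 16 alternatives. The count of other pathway genes past the threshold, 13 and 27, ran from 1 to 27 under miR-338-5p and from 2 to 28 under miR-421. Over the 676 alternatives of single machinery probes, 597 kept direction and call status, 27 lost a call, 8 gained one and 0 reversed one. A further 44 values without a call changed sign, the largest at 0.16. Most of the 676 belong to results with no call in the main fit, and the lost calls all belong to DICER1 and the first AGO3 probe. DICER1 passed in 7 of 17 alternatives under miR-338-5p and 16 of 17 under miR-421. The first AGO3 probe passed in 3 of 17 and 15 of 17. Over all probes, the share called ran from 0.778% to 13.3% under miR-338-5p and from 2.29% to 25.3% under miR-421. With the replicate number as a replicate block, 3 machinery probes passed in each comparison with control (TNRC6A added under miR-338-5p, DROSHA under miR-421). The correlation within blocks that limma estimated was -0.30. Whether the numbers pair the samples is not given by the labels and cannot be decided here, as only 2 numbers are shared. Deviations of arrays with the same number correlated at -0.14 and -0.21, and those of the other pairs of arrays between the lines at -0.15 to 0.20. Causes of these changes were not tested.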
